A study of Saccharomyces cerevisiae with 18 samples.

Results

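The transcripts described here come from 46 budding yeast genes of meiosis and spore formation, measured in vegetatively growing cells that were not induced to sporulate. The genes were given by systematic name as genes of the early, middle and late sporulation programme. The rule used no measured value, but the set was put together with earlier results of these data known. Of the 46, 45 had a row in the deposited table of 5746 genes. The transcript level of MER1, a meiotic splicing factor, is not analysed here, and MER1 enters only the roles and the sequence searches. The members were divided by role into 7 regulators, 12 genes of the chromosome axis and recombination, 9 genes of the prospore membrane, septins and spindle pole, and 18 genes of the spore wall and other late functions. A filter on low counts left 41 of the 45 for testing, while SMK1, SPO13, SAE3 and SPS2 were removed by it and are given as counts.

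Poly(A) RNA of 6 strains was sequenced, with 3 independently grown samples per strain and 1 library per sample. The series asks how substitutions in a back-face beta-turn of Rad6, a ubiquitin-conjugating enzyme, affect transcript levels. All strains were labelled Mat a, shared mutations of the nutritional marker genes URA3, LEU2 and HIS3 and a deletion of TRP1, and grew at 30 °C in medium lacking tryptophan. The rad6Δ strain carried a KanMX deletion of chromosomal RAD6 and the empty centromeric vector pRS314. The bre1Δ strain carried a KanMX deletion of BRE1 and the same empty vector, and kept its own untagged RAD6 on the chromosome. The P43L, P47T and E49K strains carried the rad6Δ deletion and a centromeric TRP plasmid with RAD6 fused to 3 copies of the V5 tag and 1 residue replaced. The strain called WT had the same deletion and the same tagged plasmid with unmutated RAD6. Thus bre1Δ differed from WT in BRE1 and also in the tag and location of RAD6, and these differences cannot be told apart.

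Sporulation in budding yeast belongs to starved diploid cells that express both mating types. Ime1 starts the programme, the kinase Ime2 drives it on, early recombination genes are freed from repression by Ume6 at the URS1 site, and Ndt80 switches on the middle genes through the middle sporulation element (MSE), a site that Sum1 occupies as a repressor in growing cells. Rad6 with its partner ligase Bre1 attaches ubiquitin to histone H2B in chromatin.

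The 300 bases before each start codon were searched on both strands for GGCGGC, the core letters of URS1, and CACAAA, the core letters of the MSE. The URS1 core was present before 9 of the 12 axis and recombination genes and 2 of the 7 regulators, and before 0 of 9 prospore membrane genes and 0 of 18 spore wall genes. It was present before 5.2% of all 6001 nuclear protein-coding genes (312 genes). The MSE core was present before 9 of 9 prospore membrane genes, 14 of 18 spore wall genes, 4 of 7 regulators and 1 of 12 axis and recombination genes, against 19.1% of all genes (1148 genes). SMK1 alone among the 46 held both cores, and the sites before SMK1, SPS4 and GAS2 lay in the coding sequence of a neighbouring gene. A match is a description of letters, and binding was not measured.

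**Figure D1:**
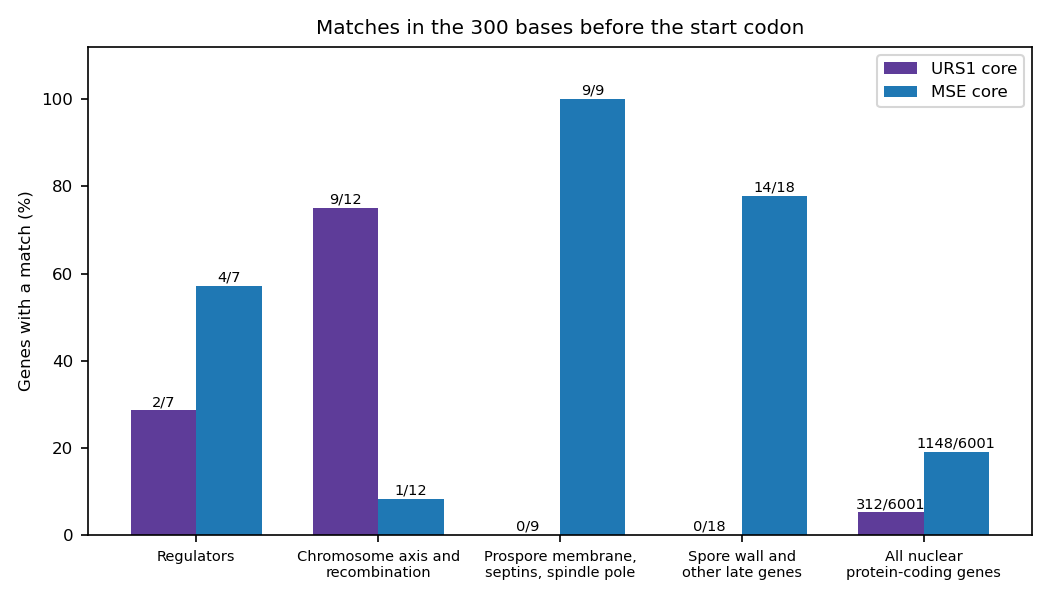
Share of genes (vertical axis, percent) with the URS1 core (purple) or the MSE core (blue) in the 300 bases before the start codon, by role of the sporulation genes and for 6001 nuclear protein-coding genes, with the counts above the bars. The URS1 core stands before 9 of 12 axis and recombination genes, and the MSE core before 9 of 9 prospore membrane genes.

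The URS1 sites of the 9 axis and recombination genes that had the core are shown, the farther of a pair for MEK1, on the strand of each gene in the R64 build, 5′ to 3′, with the core or its reverse complement in capitals. They show how the bases beside the core compare between genes.
HOP1 (chrIX:226419-226448, plus strand): gtttttaacctgGGCGGCtaaattgtactt
ZIP1 (chrIV:1032404-1032433, plus strand): taaaataccctcGGCGGCtaaatttttaga
MEK1 (chrXV:996642-996671, minus strand): aagaagaatgatGGCGGCtaaatttcggcg
HOP2 (chrVII:435484-435513, plus strand): gattatgtcctcGGCGGCtaaattttccat
REC8 (chrXVI:571545-571574, minus strand): gaacttgacttcGGCGGCaaaccaatatat
SAE3 (chrVIII:262645-262674, minus strand): gttctgcctaatGGCGGCtattctatttct
SPO13 (chrVIII:131940-131969, plus strand): tattgagaaataGCCGCCgacaaaaaggaa
HED1 (chrIV:477717-477746, plus strand): tttattaagataGCCGCCcaggttaaattc
DMC1 (chrV:548271-548300, plus strand): gaccggaaaataGCCGCCcaaggataaact
The longer run GGCGGCTAAAT, looked for after these sites had been seen, stood before HOP1, ZIP1, MEK1 and HOP2, 4 of the 46 genes, and before 10 of 6001 genes in all.

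As examples, 1 MSE site is shown in the same way for each of 9 middle and late genes that rose in rad6Δ, and for NDT80, which encodes the activator that binds this element, with the core or its reverse complement in capitals.
SPO74 (chrVII:185497-185526, minus strand): tcaatgttctctTTTGTGtcacaagaaata
SPO75 (chrXII:140636-140665, minus strand): aattctttatgaCACAAAttatagcgtgtt
SPO77 (chrXII:807223-807252, plus strand): tataagaaatgtCACAAAatcaaaaatagc
SPR3 (chrVII:607263-607292, plus strand): ttttgttagcgaCACAAAagagacctcgat
SPR28 (chrIV:905132-905161, minus strand): atgcgtctacatTTTGTGtcattcccataa
LOH1 (chrX:375808-375837, minus strand): aaaaatagacacCACAAAacaataagtgaa
CDA1 (chrXII:745494-745523, plus strand): ggttgatttactTTTGTGttttcaaaaaga
CDA2 (chrXII:747759-747788, plus strand): tagatatttgatTTTGTGacgcaacgcaaa
SGA1 (chrIX:177799-177828, plus strand): catgtgtggagtCACAAAttaggggactca
NDT80 (chrVIII:356330-356359, plus strand): caggccgtatgaCACAAAagagtagaaaac
The longer run GACACAAA or its reverse complement, also looked for after the sites had been seen, stood before 9 of the 46 genes (19.6%) and 84 of 6001 in all (1.4%). By call in rad6Δ, the MSE core stood before 19 of 26 members that rose, 6 of 12 uncalled and 1 of 3 that fell. For the URS1 core these numbers were 5, 2 and 0.

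The wider context of 1 site of each kind is given for REC8 and SPO74, the members of their roles with the lowest adjusted p in rad6Δ, from 300 to 101 bases before the start codon.
REC8 (chrXVI:571479-571678, minus strand): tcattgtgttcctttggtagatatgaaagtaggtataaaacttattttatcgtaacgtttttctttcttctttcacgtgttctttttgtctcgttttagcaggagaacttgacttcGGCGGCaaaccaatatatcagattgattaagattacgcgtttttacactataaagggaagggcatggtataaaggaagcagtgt
SPO74 (chrVII:185495-185694, minus strand): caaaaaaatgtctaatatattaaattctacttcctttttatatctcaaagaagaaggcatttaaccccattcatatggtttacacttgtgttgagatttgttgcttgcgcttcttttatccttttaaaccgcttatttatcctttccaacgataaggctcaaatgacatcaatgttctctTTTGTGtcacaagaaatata
The URS1 core of REC8 began 184 bases before its start codon and the MSE core of SPO74 began 120 bases before its own.

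Library totals ran from 5065845 to 11396251 counts, and levels are given as CPM, the counts scaled to a common library total. RAD6 was at 4.29 ± 0.510 CPM in rad6Δ, against 149 ± 6.82 CPM in WT, and BRE1 at 1.72 ± 0.436 CPM in bre1Δ, against 141 ± 5.67 CPM in WT (SD, n = 3 each). The mating-type markers went against the label Mat a: the summed level of 5 alpha-cell genes was 1864 to 3004 CPM in the 18 libraries, while the a-factor gene MFA1 was at 0.110 to 0.753 CPM in WT. In rad6Δ 4 of the 5 tested a-cell genes rose, to a summed level of 54.9 to 59.6 CPM for the list of 7, against 40.3 to 42.8 CPM in WT. Of the 5 tested, MFA2 and AGA2 passed the filter on low counts mainly through rad6Δ, so this share is not independent of that filter. MFA2 was at 1.36 to 2.01 CPM in rad6Δ, against 0.221 to 0.565 CPM in WT. AGA2 was at 2.35 to 3.23 CPM in rad6Δ, against 0.37 to 1.10 CPM in WT. In the deletions 2 of the 5 alpha-cell genes fell in rad6Δ and 4 in bre1Δ, where 24.8% of all genes tested rose and 24.8% fell in rad6Δ, and 22.3% rose and 22.1% fell in bre1Δ. Of 9 genes expressed in haploid cells, 7 fell in rad6Δ and 7 in bre1Δ, with summed levels of 558 to 592 CPM in rad6Δ and 567 to 585 CPM in bre1Δ, against 723 to 732 CPM in WT. Their part in the results was not tested.

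In WT, transcripts of nearly all these genes were scarce. The median member was at 2.63 CPM per kilobase of coding sequence, against 39.2 CPM per kilobase for 5623 open reading frames, and 43 of the 45 members lay below that median. RRT8, a lipid droplet protein gene, was the most abundant per length, at 69.1 CPM per kilobase, followed by the prospore membrane gene SPO73 at 48.5 and SPR6, a sporulation gene of unknown function, at 27.3. IME1 stood at 3.57, IME2 at 6.93 and NDT80 at 2.98 CPM per kilobase. The lowest was CDA2, a chitin deacetylase gene, at 0.0997 CPM per kilobase. Coding sequences of the members did not overlap another annotated gene, and no stretch of 50 bases, the read length, from any of the 46 occurred elsewhere in the genome.

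**Figure D2:**
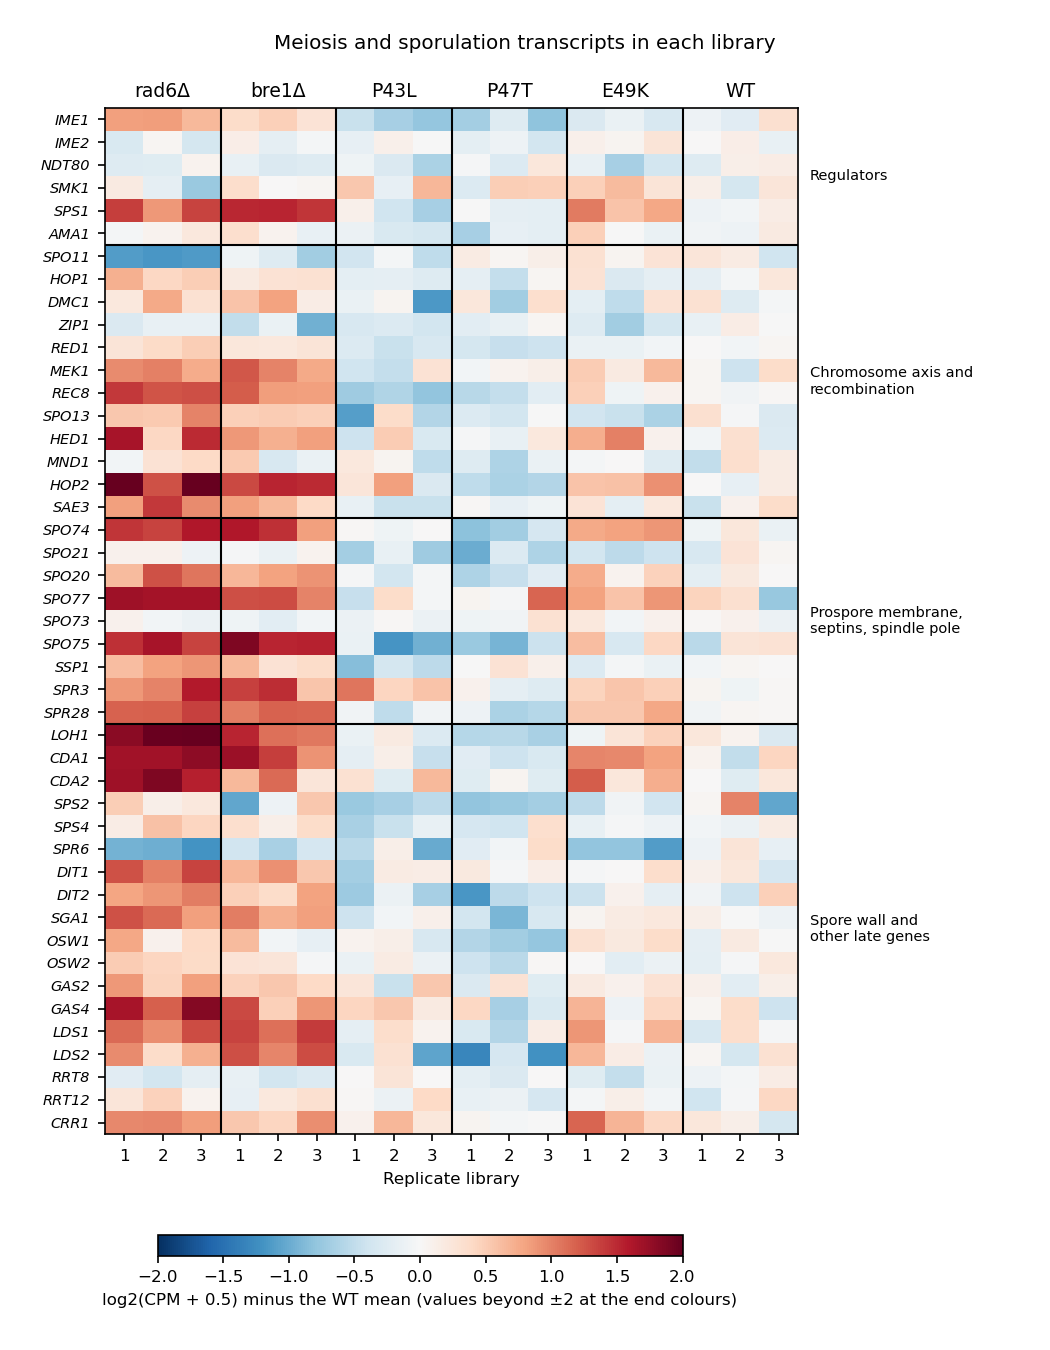
Level of 45 sporulation genes (rows, by role) in each of the 18 libraries (columns, by strain), as log2(CPM + 0.5) minus the mean of the 3 WT libraries, red for higher and blue for lower, with colours ending at ±2. The summed level of the 45 was 387 ± 11.3 CPM in rad6Δ and 349 ± 24.2 in bre1Δ. It was 268 ± 21.8 CPM in P43L, 257 ± 22.5 in P47T and 289 ± 22.8 in E49K, against 295 ± 10.0 in WT (SD, n = 3).

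In rad6Δ against WT, 26 of the 41 tested members rose, 3 fell and 12 did not pass the test (edgeR's quasi-likelihood test, Benjamini-Hochberg adjusted p under 0.05 over all 5630 genes tested). Those that rose made up 63.4% of the members, where 24.8% of all genes tested rose and 24.8% fell. They include MEK1, SPO77, CDA2 and LDS1, which passed the filter on low counts mainly through the deletion strains. The members' shares that rose are therefore not independent of that filter. The median log2 fold change was 0.93 for the members and -0.00 for all genes. Since scarce transcripts rose more often in this strain, the count was also read among genes with a mean under 10 CPM: 22 of 31 such members rose (71%), against 41.7% of the 506 such genes. Of the 10 members at 10 CPM or more, 4 rose and 3 fell, with a median of -0.12. RNA was extracted from whole cultures, so that a change in the share of cells with a transcript and a change in its amount per cell cannot be told apart.

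Among the regulators, IME1, the transcription factor that starts meiosis (YJR094C, chrX:604569-605651, minus strand), was at 7.16, 7.24 and 6.27 CPM in rad6Δ, against 3.52, 3.20 and 4.90 CPM in WT. The groups did not overlap, and IME1 rose by a log2 fold change of 0.89 ± 0.19 (SE; adjusted p = 0.000466). SPS1, a kinase needed to close the prospore membrane, was at 6.80, 4.62 and 6.67 CPM in rad6Δ, against 2.13, 2.21 and 2.64 CPM in WT, and rose by 1.38 ± 0.23 (adjusted p = 5e-05). All 3 rad6Δ libraries again stood above all 3 WT libraries. IME2, the kinase that follows Ime1, was at 10.7, 13.7 and 10.4 CPM in rad6Δ, against 13.4, 14.8 and 12.1 CPM in WT, with a log2 fold change of -0.21 ± 0.14 (adjusted p = 0.214). NDT80, the activator of middle genes, was at 4.58, 4.62 and 5.86 CPM in rad6Δ, against 4.54, 6.07 and 6.21 CPM in WT, with -0.15 ± 0.20 (adjusted p = 0.573). The groups overlapped for both of these, as they did for AMA1, which encodes a meiotic activator of the anaphase-promoting complex. Its log2 fold change was 0.10 ± 0.19 (adjusted p = 0.673).

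Of the 10 axis and recombination genes tested, 6 rose and 1 fell in rad6Δ. REC8, the meiotic cohesin subunit (YPR007C, chrXVI:569336-571378, minus strand), had the lowest p of this role, at 27.2, 24.5 and 25.1 CPM in rad6Δ, against 10.2, 9.49 and 10.2 CPM in WT, a log2 fold change of 1.36 ± 0.14 (adjusted p = 1.14e-07). HOP2, which helps the Dmc1 recombinase to pair homologous chromosomes (YGL033W, chrVII:435625-436401, plus strand, 3 exons), was at 7.74, 3.84 and 9.40 CPM in rad6Δ, against 1.30, 1.10 and 1.51 CPM in WT. It rose by 2.39 ± 0.34 (adjusted p = 5.84e-06), although replicate 2 of rad6Δ stood well below the other rad6Δ libraries. For genes of the axis proteins the changes were smaller: RED1 rose by 0.39 ± 0.09 (adjusted p = 0.00125) and its partner HOP1 by 0.59 ± 0.16 (adjusted p = 0.00487). MEK1, the kinase that acts on the axis, rose by 1.40 ± 0.40, and HED1 by 1.56 ± 0.44 (adjusted p = 0.00568 for MEK1 and 0.00539 for HED1). MEK1 was scarce, with 44 counts over the rad6Δ libraries, against 15 over the WT libraries. DMC1 itself and MND1, the partner of Hop2, did not pass the test, with 0.54 ± 0.38 and 0.31 ± 0.39.

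SPO11, whose product cuts DNA to begin recombination (YHL022C, chrVIII:62961-64157, minus strand), went the other way. It was at 5.75, 5.58 and 5.72 CPM in rad6Δ, against 15.7, 14.7 and 9.79 CPM in WT, and fell by 1.28 ± 0.18 on the log2 scale (adjusted p = 5.61e-06). The 3 rad6Δ libraries lay close together and below the lowest WT library. No URS1 or MSE core was found in the 300 bases before SPO11. The same held for RRT8, which fell in rad6Δ, and for DIT1 and DIT2, which rose. It also held for IME2, AMA1, MND1 and OSW1, which did not pass the test, while SPR6, which fell, had an MSE core. ZIP1, the transverse filament protein of the synaptonemal complex, was at 18.9 ± 1.14 CPM in rad6Δ, against 21.7 ± 2.25 CPM in WT (adjusted p = 0.275).

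Of the 9 prospore membrane, septin and spindle pole genes, 7 rose in rad6Δ. SPO74, a spindle pole plaque protein of the second meiotic division (YGL170C, chrVII:184153-185394, minus strand), was at 5.98, 5.67 and 6.81 CPM in rad6Δ, against 1.76, 2.32 and 1.70 CPM in WT, a log2 fold change of 1.64 ± 0.22 (adjusted p = 3.98e-06). SPR28 and SPR3, septins of sporulating cells, rose by 1.50 ± 0.23 (adjusted p = 2.02e-05) and 1.28 ± 0.26 (adjusted p = 0.000305). SPO75, needed for the prospore membrane to extend, was at 4.46, 5.14 and 4.09 CPM in rad6Δ, against 0.741, 1.65 and 1.70 CPM in WT, and rose by 1.84 ± 0.33 (adjusted p = 9.34e-05). For each of these 4 genes the lowest rad6Δ library exceeded the highest WT library. SSP1, at the leading edge of the membrane, rose by 0.83 ± 0.16, the SNARE gene SPO20 by 1.21 ± 0.26 and SPO77, which acts with Sps1, by 2.18 ± 0.47. SPO77 had 60 counts over the rad6Δ libraries, against 12 over the WT libraries. The remaining members did not pass the test: SPO21, another spindle pole plaque protein, was at 7.07 ± 0.577 CPM in rad6Δ, against 7.04 ± 1.52 CPM in WT. SPO73 was at 20.5 ± 1.58 CPM in rad6Δ, against 20.9 ± 1.57 CPM in WT.

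Of the 17 tested spore wall and late genes, 11 rose and 2 fell in rad6Δ. LOH1, a spore wall gene (YJL038C, chrX:375115-375774, minus strand), was at 12.9, 14.6 and 14.8 CPM in rad6Δ, against 3.98, 3.53 and 2.64 CPM in WT, a log2 fold change of 2.01 ± 0.18 (adjusted p = 1.57e-08). CDA1, a chitin deacetylase of the chitosan layer (YLR307W, chrXII:745620-746525, plus strand), was at 9.27, 9.24 and 9.94 CPM in rad6Δ, against 2.69, 1.65 and 3.58 CPM in WT, and rose by 1.90 ± 0.23 (adjusted p = 6.7e-07). Every rad6Δ library was above every WT library for both genes. CDA2, its neighbour on chromosome XII, had 40 counts over the rad6Δ libraries, against 2 over the WT libraries, a ratio of 18.4 after scaling (95% exact interval 4.78 to 157, counting error only). SGA1, a glucoamylase that breaks down glycogen in spores, was at 23.8, 21.6 and 17.3 CPM in rad6Δ, against 10.5, 9.49 and 8.85 CPM in WT, and rose by 1.11 ± 0.16 (adjusted p = 5.81e-06). DIT1, which makes the precursor of the dityrosine layer, rose by 1.23 ± 0.20 (adjusted p = 4.29e-05), and DIT2, the next enzyme of that path, by 1.14 ± 0.30 (adjusted p = 0.00368). The glucanosyltransferases GAS4 and GAS2, the lipid droplet gene LDS1, the glycoside hydrolase gene CRR1 and the spore wall gene OSW2 also rose, by 1.78, 0.75, 1.60, 0.93 and 0.48 on the log2 scale.

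The pair that fell in rad6Δ among the late genes were SPR6 and RRT8. SPR6 was at 7.86, 7.67 and 6.54 CPM in rad6Δ, against 14.5, 18.8 and 13.9 CPM in WT, and fell by 1.10 ± 0.23 on the log2 scale (adjusted p = 0.000458), with no overlap between the groups. RRT8 was at 60.5, 55.0 and 62.8 CPM in rad6Δ, against 65.8, 69.2 and 78.3 CPM in WT, and fell by 0.25 ± 0.10 (adjusted p = 0.0453). The call on RRT8 was lost without rad6Δ replicate 1 or 2 or WT replicate 2 or 3, with adjusted p from 0.0699 to 0.155. SPS4, OSW1, LDS2 and RRT12 did not pass the test, with log2 fold changes from 0.48 to 0.93.

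**Figure D3:**
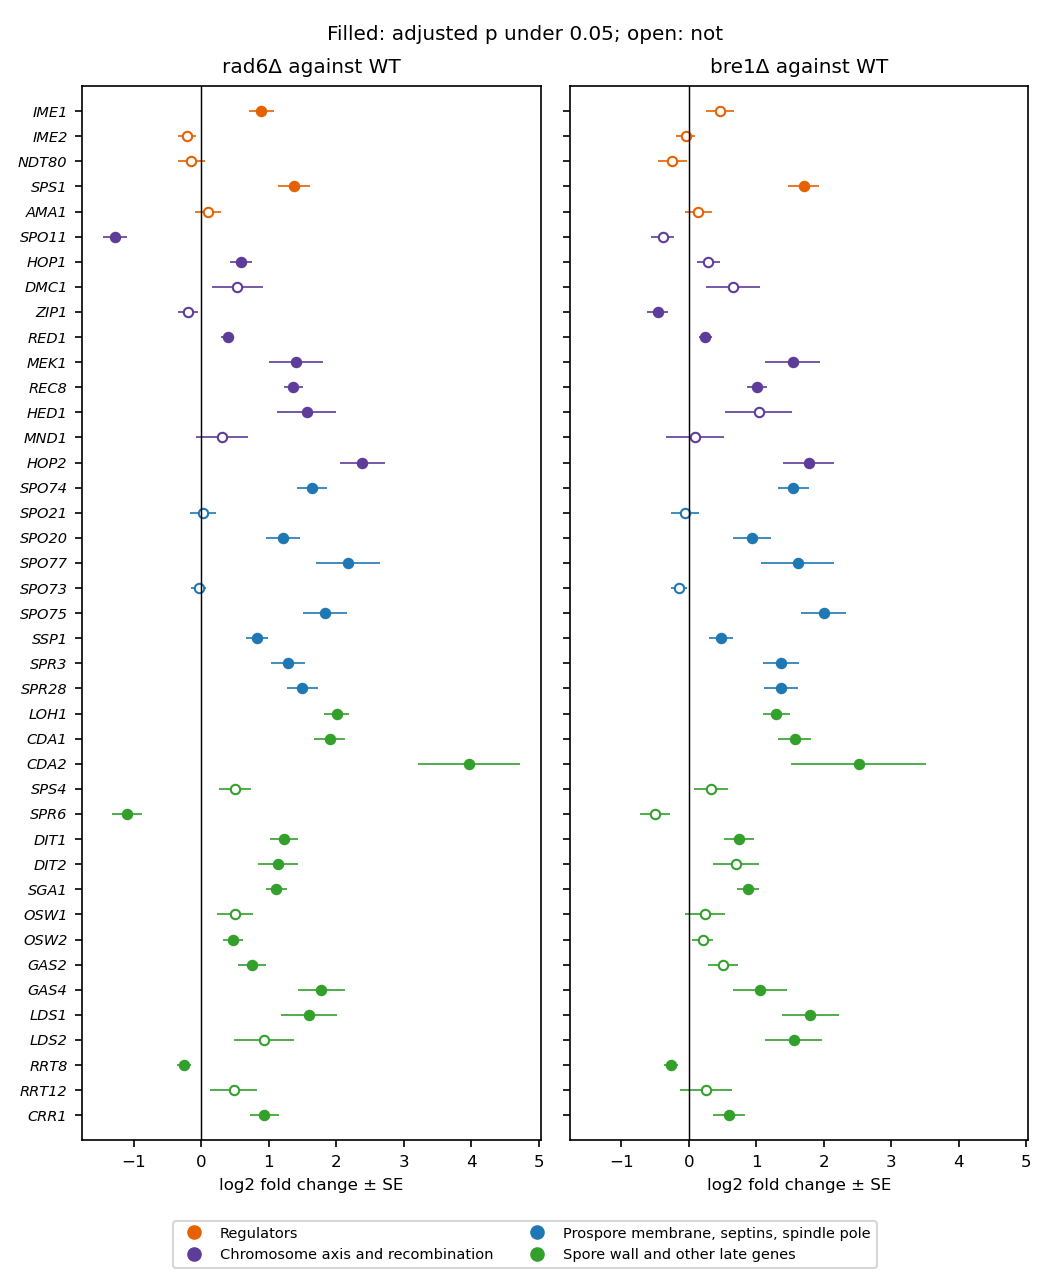
Log2 fold change against WT (horizontal axis, ± SE) of the 41 tested sporulation genes (rows, coloured by role) in rad6Δ (left) and bre1Δ (right), with filled points for an adjusted p under 0.05. In rad6Δ 26 genes rose and 3 fell, and in bre1Δ 21 rose and 2 fell.

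In bre1Δ against WT, 21 of the 41 members rose (51.2%), 2 fell and 18 did not pass the test, where 22.3% of all genes rose and 22.1% fell. The median log2 fold change was 0.66 for the members and 0.00 for all genes. Among scarce genes, with a mean under 10 CPM, 18 of 31 members rose (58.1%), against 29.6% of 506 genes. MEK1, SPO77, CDA2 and LDS1, kept by the filter mainly through the deletion strains, were again among those that rose. CDA2 had 11 counts over the bre1Δ libraries, against 2 over the WT libraries. Of the 10 members at 10 CPM or more, 3 rose and 2 fell, with a median of -0.09. The count of members that rose was 16 to 18 when any 1 bre1Δ or WT library was left out. The comparison shares its WT libraries with the one of rad6Δ, so the values are set side by side and no overlap between the comparisons is given as a result.

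By role, 1 of 5 regulators, 4 of 10 axis and recombination genes, 7 of 9 prospore membrane genes and 9 of 17 late genes rose in bre1Δ. SPS1 was at 7.49, 7.64 and 7.11 CPM in bre1Δ, against 2.13, 2.21 and 2.64 CPM in WT, and rose by 1.71 ± 0.23 on the log2 scale (adjusted p = 7.12e-06). These libraries lay far apart from WT, while those of IME1 overlapped with WT. IME1 was at 5.09, 5.47 and 4.74 CPM in bre1Δ, against 3.52, 3.20 and 4.90 CPM in WT, a log2 fold change of 0.46 ± 0.20 (adjusted p = 0.0687). This value passed the threshold without WT replicate 3, at 0.60 with adjusted p = 0.0305. IME2 and NDT80 stood at -0.05 ± 0.14 and -0.24 ± 0.22 and did not pass the test (adjusted p = 0.806 and 0.38).

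Among the recombination genes, REC8 was at 23.7, 18.2 and 18.0 CPM in bre1Δ, against 10.2, 9.49 and 10.2 CPM in WT, and rose by 1.01 ± 0.15 (adjusted p = 1.92e-05). HOP2 rose by 1.78 ± 0.37 (adjusted p = 0.000705), MEK1 by 1.54 ± 0.41 (adjusted p = 0.00439) and RED1 by 0.24 ± 0.09 (adjusted p = 0.0422). SPO11 was at 12.3, 10.8 and 7.90 CPM in bre1Δ, against 15.7, 14.7 and 9.79 CPM in WT, with -0.39 ± 0.17 (adjusted p = 0.0679), and the groups overlapped. ZIP1 was at 15.3, 19.8 and 10.9 CPM in bre1Δ, against 19.5, 24.0 and 21.7 CPM in WT, and fell by 0.46 ± 0.15 (adjusted p = 0.0203). The groups overlapped, and the call was lost without bre1Δ replicate 3 (adjusted p = 0.115) or WT replicate 2 (adjusted p = 0.098). The number of members that fell in bre1Δ was 0 without either of these libraries and 1 without bre1Δ replicate 2.

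In the prospore membrane role, SPO75 was at 6.08, 4.67 and 4.74 CPM in bre1Δ, against 0.741, 1.65 and 1.70 CPM in WT, and rose by 2.00 ± 0.33 (adjusted p = 7.49e-05). SPO74 was at 6.78, 6.15 and 3.75 CPM in bre1Δ, against 1.76, 2.32 and 1.70 CPM in WT, and rose by 1.55 ± 0.23 (adjusted p = 2.63e-05). The third bre1Δ library of SPO74 was lower than the other two and still above WT. SPR28, SPR3, SPO77, SPO20 and SSP1 rose by 1.37, 1.37, 1.61, 0.94 and 0.48 on the log2 scale, whereas SPO21 and SPO73 did not pass the test, at -0.05 and -0.14. Of the late genes, LOH1 was at 10.6, 7.75 and 7.50 CPM in bre1Δ, against 3.98, 3.53 and 2.64 CPM in WT, and rose by 1.30 ± 0.20 (adjusted p = 3.4e-05). CDA1 rose by 1.57 ± 0.24 (adjusted p = 3.16e-05) and SGA1 by 0.87 ± 0.16 (adjusted p = 0.000243), again with no overlap with WT. LDS2, a lipid droplet gene like LDS1, was at 2.89 ± 0.429 CPM in bre1Δ, against 1.00 ± 0.329 CPM in WT, and rose by 1.55 ± 0.43 (adjusted p = 0.00571). RRT8 fell by 0.27 ± 0.10 (adjusted p = 0.0437), a call lost without bre1Δ replicate 2 or 3 or WT replicate 2 or 3 (adjusted p from 0.0691 to 0.165).

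Set directly against each other, rad6Δ and bre1Δ differed in 2 of the 41 members, where 8.92% of all genes were higher and 11.9% lower in rad6Δ. LOH1 was higher in rad6Δ, at 12.9, 14.6 and 14.8 CPM, against 10.6, 7.75 and 7.50 CPM in bre1Δ, by 0.71 ± 0.16 (adjusted p = 0.00362). SPO11 was lower in rad6Δ, at 5.75, 5.58 and 5.72 CPM, against 12.3, 10.8 and 7.90 CPM in bre1Δ, by -0.89 ± 0.19 (adjusted p = 0.00222). The 3 libraries of each strain did not overlap for either gene. For IME1 the difference was 0.43 ± 0.18 (adjusted p = 0.0989) and for REC8 0.35 ± 0.13 (adjusted p = 0.0608), with every rad6Δ library above every bre1Δ library. A p that misses the threshold does not show that the strains were alike. At an unadjusted p under 0.05, 8 members were higher and 2 lower in rad6Δ. No share of all genes was counted at that unadjusted threshold, so these counts are not read as a trait of the members. The count higher in rad6Δ was 3 without bre1Δ replicate 1 or 2, and 2 without rad6Δ replicate 2.

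**Figure D4:**
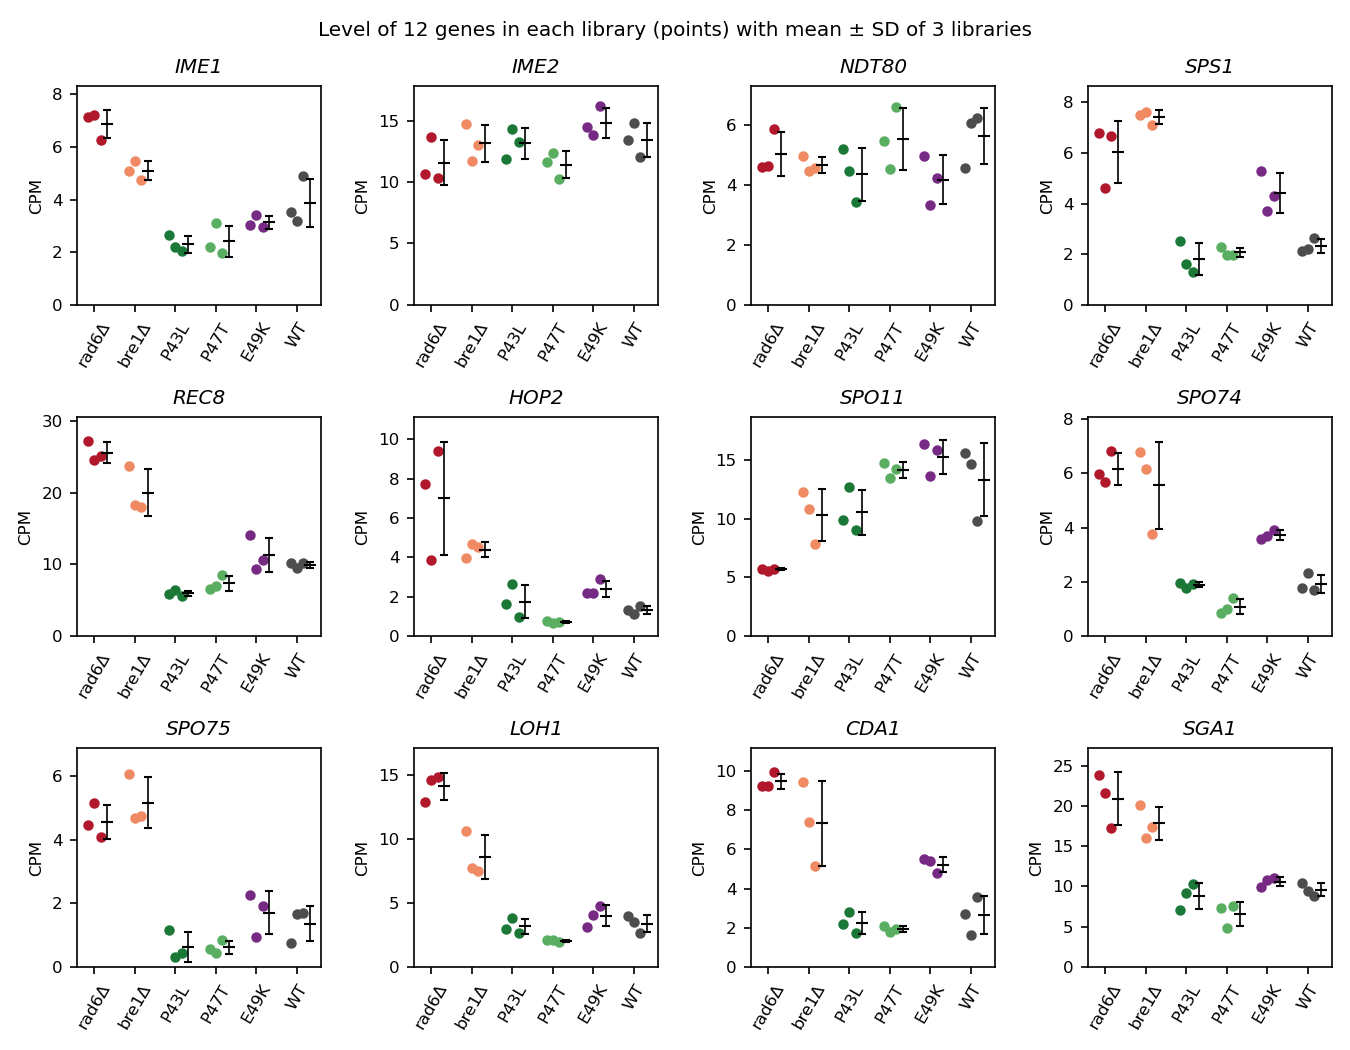
CPM (vertical axis, from 0, its own scale in each panel) of 12 sporulation genes in each library of the 6 strains (points), with the mean ± SD of 3 libraries beside them (black). LOH1 stands at 14.1 ± 1.07 CPM in rad6Δ, 8.62 ± 1.72 in bre1Δ, 2.05 ± 0.0814 in P47T and 3.38 ± 0.685 in WT, while IME2 and NDT80 stay within overlapping ranges in the deletion strains and WT.

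In P43L against WT 0 of 41 members rose and 3 fell, where 5.95% of all genes rose and 6.18% fell, and the median log2 fold change of the members was -0.19. By edgeR at an unadjusted p under 0.05, 1 was higher and 8 were lower, and DESeq2 called 1 higher and 1 lower. No share of all genes was counted at the unadjusted threshold, so those counts cannot be set against the shares above. The gene called higher by DESeq2 was the septin gene SPR3, at 6.69, 4.14 and 4.60 CPM in P43L, against 3.06, 2.76 and 3.01 CPM in WT, with a log2 fold change of 0.82 ± 0.27 by edgeR (adjusted p = 0.0534). Its P43L libraries all stood above WT.

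REC8 fell in P43L. It was at 5.88, 6.36 and 5.56 CPM in P43L, against 10.2, 9.49 and 10.2 CPM in WT, with no overlap, a log2 fold change of -0.75 ± 0.17 (adjusted p = 0.00974). RED1, at 14.8 ± 0.933 CPM in P43L, against 19.0 ± 0.713 CPM in WT, fell by 0.35 ± 0.10 (adjusted p = 0.0243). SSP1, at 3.64 ± 0.710 CPM in P43L, against 5.59 ± 0.190 CPM in WT, fell by 0.63 ± 0.19 (adjusted p = 0.0361). Both were close to the threshold: RED1 lost its call without any 1 of the 6 libraries, and SSP1 without any 1 except P43L replicate 2. The number of members that fell was 0 without P43L replicate 3, 1 without P43L replicate 1 or WT replicate 2 or 3, and 5 without P43L replicate 2. IME1 was at 2.65, 2.22 and 2.03 CPM in P43L, against 3.52, 3.20 and 4.90 CPM in WT, with -0.69 ± 0.23 (adjusted p = 0.0508). IME2 and NDT80 did not pass the test, at -0.05 ± 0.14 and -0.34 ± 0.21.

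In P47T against WT 0 of 41 members rose and 7 fell (17.1%), where 14.2% of all genes rose and 13.7% fell. The median of the members was -0.24, against -0.01 for all genes, and 34 of the 41 had a negative log2 fold change. These values were all read against the same WT libraries, and no share of negative values was counted over genes of like level. Among members under 10 CPM 4 of 31 fell (12.9%), against 11.1% of all such genes, and 3 of the 10 above that level fell. The shares that fell over all members and under 10 CPM were thus near those of all genes. By edgeR 0 were higher and 11 were lower at an unadjusted p under 0.05, and DESeq2 called 0 higher and 6 lower. The unadjusted counts have no share of all genes at the same threshold beside them and cannot be set against the shares above. RED1 was at 14.7, 13.6 and 14.1 CPM in P47T, against 19.2, 18.2 and 19.6 CPM in WT, and fell by 0.42 ± 0.10 (adjusted p = 0.00334). It was the call kept under each of the 13 alternatives tried for it. LOH1 was at 2.10, 2.10 and 1.96 CPM in P47T, against 3.98, 3.53 and 2.64 CPM in WT, and fell by 0.76 ± 0.25 (adjusted p = 0.0283). SPO74 was at 0.859, 0.995 and 1.40 CPM in P47T, against 1.76, 2.32 and 1.70 CPM in WT, and fell by 0.88 ± 0.31 (adjusted p = 0.0422). The groups did not overlap for these 3 genes.

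The other P47T calls were IME1, by -0.61 ± 0.22 (adjusted p = 0.0448), SPO21, by -0.67 ± 0.21 (adjusted p = 0.0236), SGA1, by -0.56 ± 0.18 (adjusted p = 0.0264), and REC8, by -0.45 ± 0.17 (adjusted p = 0.0478). IME1 was at 2.20, 3.10 and 1.96 CPM in P47T, against 3.52, 3.20 and 4.90 CPM in WT, so that the highest P47T library lay just under the lowest WT library. Each of these 4 calls, and those of LOH1 and SPO74, was lost in at least 3 of the 6 fits that left out 1 library. The number of members that fell was 2 without P47T replicate 1 or WT replicate 2, 3 without WT replicate 1 or 3, and 4 without P47T replicate 2. IME2 stood at -0.24 ± 0.14 and NDT80 at -0.01 ± 0.20 in P47T.

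In E49K against WT 5 members rose (12.2%) and 3 fell, where 15.2% of all genes rose and 16.1% fell, so neither share was above that of all genes. All 5 that rose had a mean under 10 CPM, 16.1% of the 31 such members, against 12.1% of all such genes. SPS1 was at 5.29, 3.70 and 4.31 CPM in E49K, against 2.13, 2.21 and 2.64 CPM in WT, and rose by 0.95 ± 0.24 (adjusted p = 0.0053). SPO74 was at 3.56, 3.70 and 3.93 CPM in E49K, against 1.76, 2.32 and 1.70 CPM in WT, and rose by 0.94 ± 0.24 (adjusted p = 0.0059). CDA1 was at 5.50, 5.41 and 4.79 CPM in E49K, against 2.69, 1.65 and 3.58 CPM in WT, and rose by 1.05 ± 0.24 (adjusted p = 0.003). All 3 genes had every E49K library above every WT library and kept their calls without any 1 library. SPR28 rose by 0.78 ± 0.25 (adjusted p = 0.0218) and CRR1 by 0.76 ± 0.21 (adjusted p = 0.0108). The call on CRR1 was lost without E49K replicate 1 (0.52, adjusted p = 0.0762), and that on SPR28 without E49K replicate 3 or WT replicate 1 or 2 (adjusted p from 0.0524 to 0.0911).

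The genes that fell in E49K were SPR6, ZIP1 and RRT8. SPR6 was at 8.84, 8.82 and 6.89 CPM in E49K, against 14.5, 18.8 and 13.9 CPM in WT, and fell by 0.96 ± 0.22 (adjusted p = 0.00298). ZIP1 fell by 0.44 ± 0.15 (adjusted p = 0.029) and RRT8 by 0.28 ± 0.10 (adjusted p = 0.045), and 1 member remained as a call without WT replicate 2 or 3 or E49K replicate 2. SPO11, low in rad6Δ, was at 16.4, 13.7 and 15.9 CPM in E49K, overlapping with WT (0.15 ± 0.15, adjusted p = 0.475). IME1, IME2 and NDT80 did not pass the test in E49K, with -0.25 ± 0.21, 0.13 ± 0.13 and -0.41 ± 0.21.

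**Figure D5:**
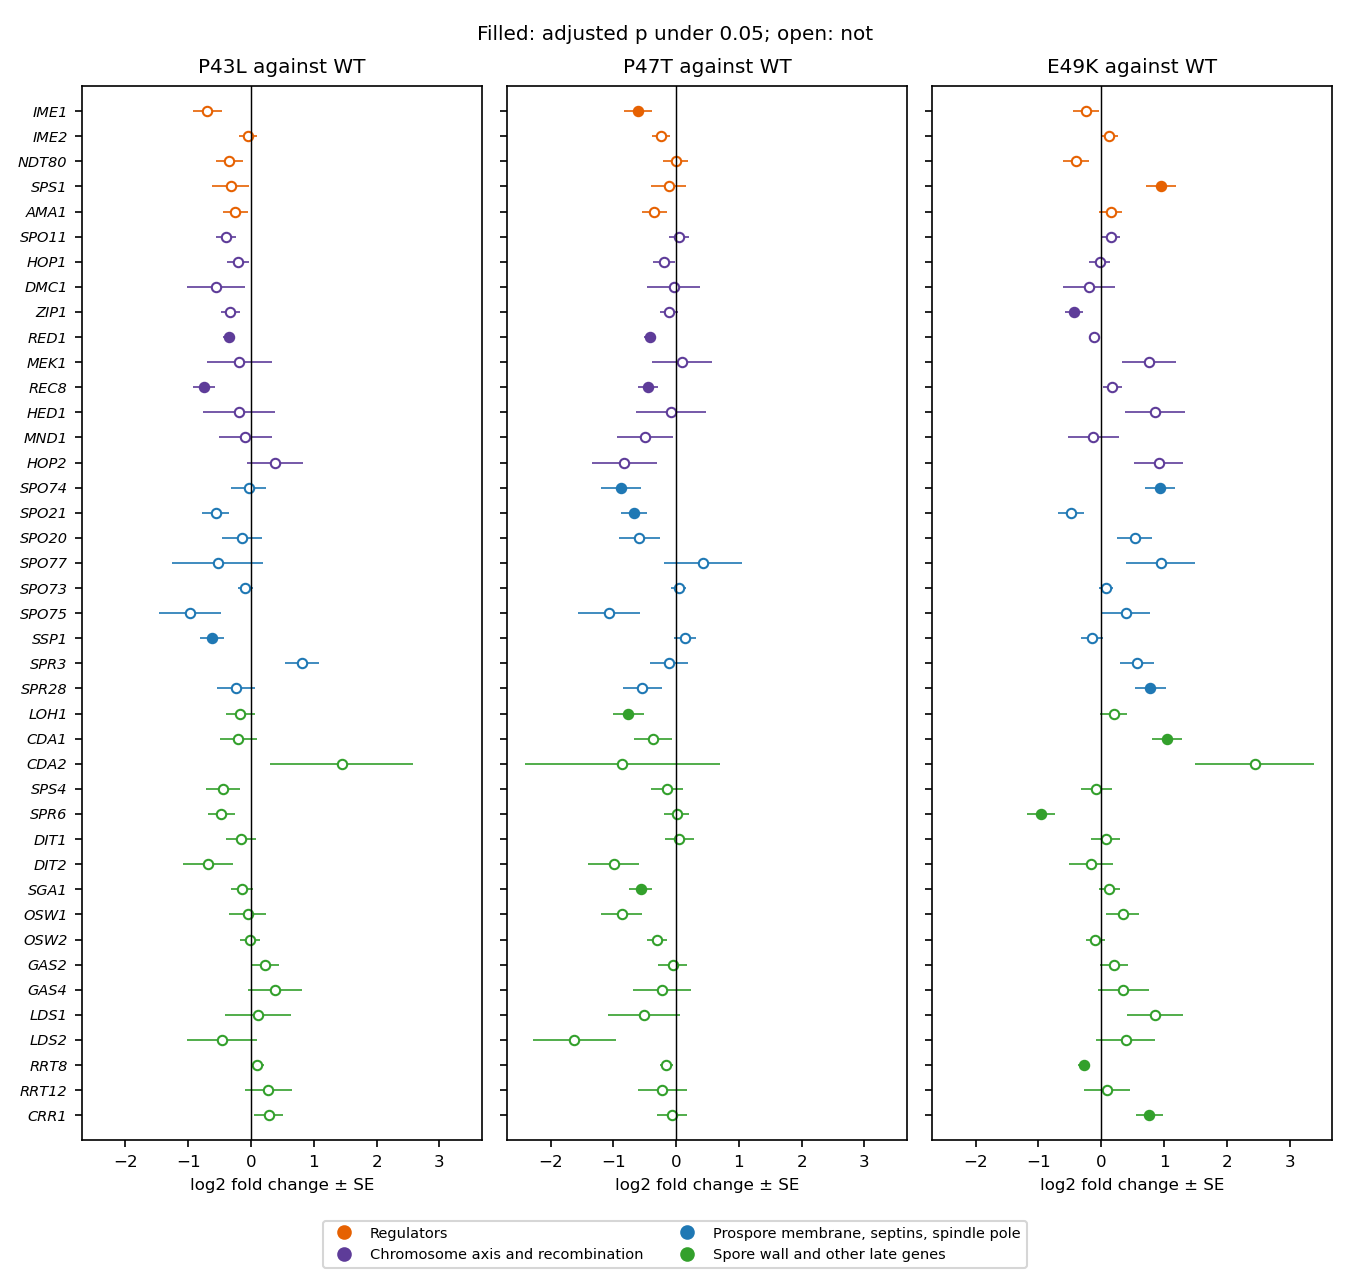
Log2 fold change against WT (horizontal axis, ± SE) of the 41 tested sporulation genes (rows, coloured by role) in P43L, P47T and E49K, with filled points for an adjusted p under 0.05. P43L has 3 filled points and P47T has 7, all of them left of zero, and E49K has 5 to the right and 3 to the left.

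Set against rad6Δ itself, most tested members were lower in each point mutant. P43L had 29 members lower and 3 higher than rad6Δ, where 25.2% of all genes were lower and 23.9% higher, with a median of -1.25. P47T had 30 lower and 2 higher, where 26.4% of all genes were lower and 25.9% higher, with a median of -1.31. E49K had 22 lower and 2 higher, where 18.5% of all genes were lower and 18.4% higher, with a median of -0.64. Among genes under 10 CPM, 25 of 31 members were lower in P43L (80.6%), against 47.6% of all such genes, 26 in P47T (83.9%), against 47.2%, and 18 in E49K (58.1%), against 31.8%. Of the 10 members at 10 CPM or more, 4 were lower in each point mutant, and 3 were higher in P43L, 2 in P47T and 2 in E49K. These comparisons share the 3 rad6Δ libraries with one another and with rad6Δ against WT. LOH1, REC8 and SPO11 were picked by their low p in rad6Δ against WT, so their small p here is no separate support. MEK1, SPO77, CDA2 and LDS1, kept by the filter mainly through the deletion strains, were among the members lower in P43L and P47T. In E49K this held for SPO77 and CDA2. LOH1 differed from rad6Δ by -2.18 ± 0.19 in P43L, -2.77 ± 0.20 in P47T and -1.81 ± 0.17 in E49K (adjusted p = 5.72e-09, 3.23e-10 and 4.57e-08). REC8 differed by -2.11 ± 0.15, -1.81 ± 0.15 and -1.18 ± 0.13 in the same order of strains (adjusted p = 4.51e-10, 2.01e-09 and 7.06e-07), and SPO11 by 0.88 ± 0.19, 1.32 ± 0.18 and 1.43 ± 0.17 (adjusted p = 0.000504, 2.51e-06 and 1.69e-06). For SPS1 the difference of E49K from rad6Δ, -0.43 ± 0.20, did not pass the test (adjusted p = 0.0946), while those of P43L and P47T were -1.70 ± 0.24 and -1.49 ± 0.23 (adjusted p = 5.86e-06 and 1.6e-05). IME2 in E49K, higher than rad6Δ by 0.34 ± 0.13 (adjusted p = 0.0473), was the other call above rad6Δ in that strain beside SPO11, and the count was 1 without any 1 E49K library or without rad6Δ replicate 1 or 3.

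The point mutants were also compared with one another. In P47T against E49K, 15 of 41 members were lower (36.6%) and 1 was higher, where 8.35% of all genes were lower and 9.41% higher, with a median of -0.52. Under 10 CPM, 12 of 31 members were lower (38.7%), against 14.4% of all such genes, and 3 of the 10 members above that level were lower. SPO74 was at 0.859, 0.995 and 1.40 CPM in P47T, against 3.56, 3.70 and 3.93 CPM in E49K, a difference of -1.81 ± 0.27 (adjusted p = 0.000103). CDA1 was at 2.10, 1.77 and 1.96 CPM in P47T, against 5.50, 5.41 and 4.79 CPM in E49K (-1.42 ± 0.25, adjusted p = 0.0006), and HOP2 at 0.764, 0.664 and 0.700 CPM in P47T, against 2.16, 2.18 and 2.87 CPM in E49K (-1.74 ± 0.44, adjusted p = 0.00928). The strains did not overlap for any of these 3 genes. SPR6 was the member higher in P47T, by 0.96 ± 0.22 (adjusted p = 0.0044). The count of lower members was 9 without P47T replicate 1 and 8 without E49K replicate 1.

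In P43L against E49K, 7 members were lower and 1 higher, where 13% of all genes were lower and 12.4% higher. The lower ones included REC8 (-0.93 ± 0.17, adjusted p = 0.000365), SPS1 (-1.27 ± 0.25, adjusted p = 0.000894) and CDA1 (-1.25 ± 0.25, adjusted p = 0.00103), and RRT8 was the higher one (0.37 ± 0.10, adjusted p = 0.00997). The count of higher members was 0 without E49K replicate 2 and 2 without P43L replicate 3. In P43L against P47T, 2 members were higher and 2 lower, where 14.7% of all genes were higher and 16.3% lower. SPR3 (0.92 ± 0.27, adjusted p = 0.0136) and SPO74 (0.84 ± 0.32, adjusted p = 0.0487) were higher in P43L, and SSP1 (-0.77 ± 0.19, adjusted p = 0.00326) and SPO11 (-0.44 ± 0.16, adjusted p = 0.0435) were lower. These counts moved between 1 and 4 for higher members and between 1 and 3 for lower members when any 1 library of the pair was left out.

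Across the 6 strains, the highest mean of a member lay in rad6Δ for 64.4% of the 45 genes, where it did so for 24.5% of all genes tested. The lowest mean lay in P47T for 55.6% of the 45, where it did so for 18.1% of all genes tested. By role, the summed level of the prospore membrane genes was 66.2 ± 2.16 CPM in rad6Δ and 60.7 ± 4.09 in bre1Δ, against 43.6 ± 3.46 in WT. The point mutants had 39.2 ± 1.72 (P43L), 39.8 ± 4.55 (P47T) and 48.2 ± 3.44 CPM (E49K). That of the regulators spanned less, at 37.7 ± 0.665 CPM in rad6Δ and 38.8 ± 3.15 in bre1Δ, with 28.5 ± 1.65 (P43L), 27.9 ± 1.54 (P47T) and 35.5 ± 3.18 CPM (E49K) in the point mutants, against 33.1 ± 1.87 CPM in WT (SD, n = 3).

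The lowest members need their counts, and the intervals given for them cover counting error only, while replicates differed by more than counting noise. SAE3, a partner of Dmc1, had 27 counts over the 3 rad6Δ libraries and 12 over bre1Δ, against 4 over WT, ratios of 6.22 (95% exact interval 2.17 to 24.4) and 3.61 (1.09 to 15.4). SPO13, a regulator of the first meiotic division, had 33 counts in rad6Δ, against 16 in WT, a ratio of 1.90 (1.02 to 3.70). SMK1, a kinase of spore wall assembly, had 12 counts in rad6Δ, against 14 in WT, and SPS2, a spore wall gene, had 20 in each, so that no difference was detectable at this depth. SPS2 had 3 counts in P47T and 4 in P43L, against 20 in WT, but WT replicate 3 alone had 0 of those counts, at 0 CPM, beside 0.556 and 1.54 CPM in replicates 1 and 2. MEK1, SPO77, CDA2, LDS1 and RRT12 passed the filter mainly through the deletion strains, since fewer than 3 libraries of the other strains exceeded its limit of 1.13 CPM. With no filter, 27 of the 45 members rose in rad6Δ and 20 in bre1Δ.

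The genes next to the members were looked at as well. Beside members that rose in rad6Δ, 13 of 40 tested neighbours rose (32.5%, against 24.8% of all genes) and 10 fell (25%), and beside those that rose in bre1Δ 12 of 32 rose (37.5%, against 22.3% of all genes) and 5 fell (15.6%). A further 46 meiosis genes, none of them among the members, were taken as a second list, of which 39 could be tested. Among them ECM11, at 1.32 CPM in rad6Δ and 1.10 CPM in bre1Δ, against 0.0676 CPM in WT, passed the filter mainly through the deletion strains. The shares of this list that rose are therefore not independent of that filter. In rad6Δ 18 of the 39 rose (46.2%, against 24.8% of all genes) and 3 fell, with a median of 0.47. In bre1Δ 12 rose (30.8%, against 22.3%) and 5 fell, with a median of 0.25. Most genes of this list were scarce too. Among all genes with a mean under 10 CPM, 41.7% rose in rad6Δ and 29.6% in bre1Δ, near the shares of the list. Of the point mutants, P43L had 0 that rose and 3 that fell (7.69%, against 6.18% of all genes). P47T had 0 that rose and 6 that fell (15.4%, against 13.7%), and E49K had 1 that rose and 4 that fell (10.3%, against 16.1%), so the shares that fell were near or under those of all genes. Those with the lowest p in rad6Δ were SHC1, an activator of chitin synthase in spores, SPS22, PES4, PCH2 and MEI4, which rose by 1.52 ± 0.19, 1.47 ± 0.20, 1.40 ± 0.18, 1.60 ± 0.27 and 1.06 ± 0.21. In bre1Δ the same 5 genes rose by 1.25 ± 0.21, 1.06 ± 0.22, 1.20 ± 0.19, 1.42 ± 0.29 and 0.71 ± 0.23.

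Genes that govern entry into meiosis formed another list of 36, of which 35 were tested. In rad6Δ 3 rose and 14 fell (40%, against 24.8% of all genes), and in bre1Δ 2 rose and 14 fell (40%, against 22.1%). In P43L 2 rose and 0 fell, in P47T 2 rose and 5 fell (14.3%, against 13.7%), and in E49K 4 rose and 9 fell (25.7%, against 16.1%). SNF1, the glucose-response kinase, was at 114 to 118 CPM in rad6Δ, against 177 to 179 CPM in WT, and fell by 0.61 ± 0.07. RME1 also belongs to the list of haploid-cell genes. MUM2, a subunit of the mRNA methylation complex, fell by 0.51 ± 0.07 in rad6Δ and 0.54 ± 0.07 in bre1Δ. SAP30, of the Rpd3 histone deacetylase complex, RME1, a repressor of IME1, and the kinase gene RIM11 fell by 0.60 ± 0.10, 0.46 ± 0.07 and 0.40 ± 0.07 in rad6Δ. TUP1, of the same list, went the other way. It was at 109 to 142 CPM in rad6Δ and 129 to 180 CPM in bre1Δ, against 90.4 to 97.4 CPM in WT. UME6 and SUM1, named after their values were seen because they encode the repressors of the URS1 and MSE sites, differed: UME6 was at 20.1 ± 0.416 CPM in rad6Δ, against 19.7 ± 1.65 CPM in WT, with 0.02 ± 0.10. SUM1 was at 54.5 ± 1.20 CPM in rad6Δ and 56.5 ± 1.95 CPM in bre1Δ, against 70.8 ± 1.60 CPM in WT, and fell by 0.38 ± 0.08 in rad6Δ and by 0.33 ± 0.08 in bre1Δ (adjusted p = 0.000401 and 0.00225). The point mutants had 63.9 ± 7.92 (P43L), 72.2 ± 2.90 (P47T) and 59.4 ± 1.89 CPM (E49K) of SUM1, with every E49K library below every WT library. Its part in the levels of the members was not tested.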

How the data were processed

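Raw counts of reads per gene, which the authors deposited for 18 libraries, were the values used. A second deposited table of regularized log2 values was not used. The submitters' processing notes name cutadapt 1.16, STAR 2.6.1b, featureCounts 1.6.3 (Subread) and DESeq2 1.20, and the builds sacCer3 and R64, with strand and multimapping settings not given in the sources used here. Per the labels' protocols the libraries came from a stranded poly(A) kit and were read as single 50-base reads, and 2 different harvest densities are stated.

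Of 5746 genes, edgeR 4.0.16 in R 4.3.3 (filterByExpr) kept 5630 and removed 116, and 3 emptied lines were not analysed. Totals ran from 5065845 to 11396251 counts and were scaled by TMM. A single robust quasi-likelihood fit covered the 6 strains, leaving 12 residual degrees of freedom, with a biological coefficient of variation of 8.55%. Each of 12 comparisons was tested two-sided, with Benjamini-Hochberg adjustment over the genes tested and a threshold of 0.05, and "rose" and "fell" mark genes past it. Fold changes are log2 ± SE, and CPM are means ± SD of 3 libraries. The fit was checked on simulated data. Alternatives were other scaling, no filter, a replicate block, nuclear open reading frames only, the 6 libraries compared, DESeq2 1.42.0 and leaving out each library.

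Samples of a strain were grown separately, per the series' design text, and each replicate pair differed by more than counting noise (chi-square per degree of freedom 6.36 to 40.7). Same-numbered replicates deviated together in all 3 pairs only for P47T against rad6Δ (r = 0.203, 0.194 and 0.208 across genes), where a block by number changed no member's call. The members and lists were chosen with earlier results of these data known. IME1, IME2 and NDT80 were named in every strain. Otherwise the rule named, per role, the 5 members of lowest adjusted p in rad6Δ and 3 in bre1Δ, those called in a point mutant or between the deletions, those that fell in a deletion, those the filter removed, and up to 5 genes of each other list. Further genes are examples chosen after their values were seen. Sequences are from the RefSeq R64 genome, and motifs were searched in the 300 bases before the start codon, a window that replaced one planned around gene starts.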

Additional observations from a re-analysis of the deposited data

How the results depend on the processing

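For 24 counts of sporulation genes that rose or fell, 252 of 312 alternatives left the count within 1.5 times of its value and 60 did not, nearly all at counts of 7 or fewer. The counts in rad6Δ against WT (26 and 3), those that rose in bre1Δ and those lower in a point mutant than in rad6Δ stayed within 1.5 times under every alternative. With relative log expression factors, with DESeq2 and with library totals alone, 1, 1 and 4 members fell in bre1Δ. In P43L 1 rose (SPR3) with relative log expression factors, no filter, nuclear open reading frames, the 6 libraries alone and DESeq2, and 1 fell under the last 2. Between rad6Δ and bre1Δ 4 were higher with library totals, and 2 lower with the 6 libraries and with DESeq2. In E49K 1 was higher than rad6Δ with library totals and DESeq2. In P43L against P47T 6 were higher and 1 lower with library totals, and 1 higher with the 6 libraries. The replicate block, where the number pairs the samples only for P47T against rad6Δ, gave 2 higher in rad6Δ than bre1Δ, 1 higher in E49K than rad6Δ and 1 higher in P43L than P47T, and kept the other counts within 1.5 times (26 rose in rad6Δ, 20 in bre1Δ, 30 lower in P47T than rad6Δ). It ended the calls on IME1 and SPO74 in P47T (adjusted p = 0.0559 and 0.0571). Leaving out 1 library gave 0 to 3 that fell in bre1Δ, 0 to 1 that rose and 0 to 5 that fell in P43L, 2 to 6 that fell in P47T and 1 to 4 that fell in E49K. It gave 1 to 3 higher in rad6Δ than bre1Δ, 1 to 2 higher in E49K than rad6Δ, 1 to 4 higher and 1 to 3 lower in P43L than P47T, 0 to 2 higher in P43L than E49K, and 8 to 16 lower in P47T than E49K. Values that changed sign were uncalled throughout. Leaving out 1 library gave -0.14 to 0.035 for IME2 in bre1Δ (above 0 without WT or bre1Δ replicate 2, at 0.025 and 0.035), -0.093 to 0.026 for IME2 in P43L (above 0 without WT replicate 2 or P43L replicate 1, at 0.026 and 0.022) and -0.17 to 0.11 for NDT80 in P47T (above 0 without WT replicate 2 or 3 or P47T replicate 2, at 0.078, 0.052 and 0.11), and with no filter NDT80 in P47T was at 0.0008. Counts near 1 CPM limit what could be seen of the scarcest members, and 3 libraries per strain limit the rest.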
